A study of Mus musculus with 15 samples.

Results

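The large (60S) subunit of the ribosome is built from ribosomal RNA and a set of proteins, most of them encoded by 1 expressed gene each. The genes described here are the 39 large-subunit protein genes that were not themselves the aim of an siRNA and that have no close expressed paralog in the set: Rpl3 to Rpl41 and the stalk genes Rplp0, Rplp1 and Rplp2. They were taken by gene symbol from tables of 24819 genes, and all 39 were found in both tables and passed the filter on low values. RNA came from the mouse embryonic stem cell line E14, cultured on gelatin in medium containing serum and LIF, the cytokine that keeps mouse stem cells undifferentiated. Cells received an siRNA against Rpl11 (siRpl11), Rpl14 (siRpl14), Rpl18 (siRpl18) or Rpl23 (siRpl23), or a non-targeting siRNA (siNT), so that every group was transfected and each knockdown aims at a different protein gene of the same subunit. Each of the 5 groups had 3 libraries of polyadenylated RNA. The titles give 48 h and the treatment protocol gives harvest at day 3, and which applies was not settled here. All groups come from 1 cell line. Whether the replicates were grown separately is not in the labels, and p-values below cover no more than the differences among the libraries at hand, which may be technical.

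Cells keep the proteins of the subunit in balanced amounts. Mammalian mRNAs for them belong to the 5′ TOP class, which begin with a C followed by a run of pyrimidines, and the kinase mTORC1 controls their translation as a class, largely through the binding protein Larp1. Proteins made in excess are degraded. The 5S particle, made of 5S rRNA with Rpl5 and Rpl11, binds the p53 regulator Mdm2 when it is not built into ribosomes. The subunit as a whole is assembled in the nucleolus, and embryonic stem cells, which divide fast, transcribe its genes at very high levels.

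Values are FPKM, fragments counted per kilobase of transcript and relative to the size of the library, so levels of different genes are given per length. Replicates 1 and 2 of every group form a first table of 10 libraries, and the third library of every group sits in a second, separately normalized table. Tests used the first table (limma on log2(FPKM + 1), Benjamini-Hochberg adjusted p under 0.05 over 12249 genes), and the second table gives 1 library per group with no test. FPKM carries no total count, so the absolute depth is unknown. The smallest steps in low values gave relative depths, with an siNT library of each table set to 1, of 0.697 to 1.39 for the 10 libraries and 1.00 to 1.29 for the 5. Each target was lowered in its own knockdown. In the first table Rpl11 stood at 24.0% of siNT in siRpl11, Rpl14 at 51.6% in siRpl14, Rpl18 at 32.6% in siRpl18 and Rpl23 at 36.3% in siRpl23. In the second table these shares were 19.9%, 38.5%, 31.2% and 31.1% in the same order. The 10 stem cell markers were at 36.7 FPKM or more in every library and summed to 6626 to 7224 FPKM in siRpl11, 5372 to 6455 in siRpl14, 5512 to 6321 in siRpl18 and 5415 to 6465 in siRpl23, against 7299 to 8378 FPKM in siNT. In the first table Nanog stood at 189 to 261 FPKM in the knockdowns against 431 and 446 in siNT. Zfp42 stood at 296 to 380 against 591 and 643, and Esrrb at 110 to 170 against 251 and 257. Klf4, Tdgf1, Dppa5a and Fgf4 were also below siNT in every knockdown library of that table. Sox2 was above siNT in all of them, at 233 to 278 FPKM against 215 and 220. Pou5f1 was above siNT in siRpl11 and below it in the other 3. Utf1 was above siNT in siRpl11 (367 and 393 FPKM against 284 and 295) and overlapped it in the other 3. The 8 fibroblast or feeder markers summed to 4.95 to 12.4 FPKM in the knockdowns and 15.6 to 19.7 FPKM in siNT, with 6 of the 8 below 1 FPKM in every library. Thy1 made up most of each sum, at 3.68 to 10.5 FPKM in the knockdowns and 14.6 to 18.9 FPKM in siNT. Fbn1 went the other way, at 0.899 to 1.67 FPKM against 0.608 to 0.737. Col1a1, under 1 FPKM throughout, was above siNT in siRpl14, siRpl18 and siRpl23 and below it in siRpl11. The 5 markers of differentiated lineages summed to 2.98 to 7.46 FPKM in the knockdowns and 1.74 to 2.29 FPKM in siNT. The part of these markers in the results was not tested. Fewer cells expressing a gene and less of its RNA per cell cannot be told apart in such bulk samples.

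In siNT cells the 39 genes were among the most abundant of all. Of them, 32 ranked within the 100 highest genes of siNT and the median member stood at 1745 FPKM. The highest was Rplp1, which encodes an acidic protein of the ribosomal stalk, at 5322 ± 330 FPKM (SD, n = 2). Rpl41, which encodes the smallest protein of the subunit, followed at 4059 ± 29.2 FPKM and Rpl32 at 3824 ± 247 FPKM (SD, n = 2 each). At the other end stood Rpl15 with 510 ± 39.8 FPKM, Rpl30 with 182 ± 25.8 FPKM and Rpl29 with 135 ± 7.74 FPKM (SD, n = 2 each). The highest and the lowest member thus lay 39.5-fold apart although their proteins enter the same particle. Most neighbours in this order could not be separated: the siNT libraries of 13 of the 38 neighbouring pairs did not overlap. The FPKM of a member in siNT lay within 1.5 times of the same value in the second table for 28 of the 39. Rpl26 stood at 259 FPKM in the second table and at 833 ± 17.9 FPKM (SD, n = 2) in the first, Rpl34 at 300 and 1006 ± 114 FPKM, Rpl23a at 3483 and 1673 ± 83.1 FPKM, and Rpl29 at 379 and 135 FPKM. Many members have near-identical processed pseudogenes in the mouse genome, 23 named after Rpl31, 15 after Rpl21, 14 after Rpl7a and 13 after Rpl23a in the RefSeq gene table, and how reads shared with them were counted is not given in the sources used here. Levels of those genes are therefore uncertain, and each change below was formed within 1 table.

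The windows around annotated transcript starts differ among the members in their runs of pyrimidines, and the starts used in these cells are not known from them. RefSeq (GRCm38.p6) promoter windows were matched by symbol for 28 of the 39 genes, with 33 windows in all. The 7 shown were chosen because the genes recur below or hold the longest runs. Rpl34 has a further window with a run of 8 and Rpl10a a further one with a run of 4, neither shown. Each line gives 35 bases before the annotated start and 25 bases from it on, 5′ to 3′ on the gene's strand. Capitals mark, in full, the longest run of pyrimidines (C or T) that has at least 1 base between 10 bases before and 15 bases after the start.
Rpl7a, chr2:26910772-26910831, plus strand: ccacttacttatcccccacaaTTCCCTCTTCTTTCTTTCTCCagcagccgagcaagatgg
Rpl34, chr3:130730313-130730372, minus strand: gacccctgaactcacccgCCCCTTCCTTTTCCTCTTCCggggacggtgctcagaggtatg
Rpl35, chr2:39005107-39005166, minus strand: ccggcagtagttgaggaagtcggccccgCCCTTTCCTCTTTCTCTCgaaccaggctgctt
Rpl27a, chr7:109519160-109519219, plus strand: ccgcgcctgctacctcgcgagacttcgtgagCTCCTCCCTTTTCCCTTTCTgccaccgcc
Rpl4, chr9:64173352-64173411, plus strand: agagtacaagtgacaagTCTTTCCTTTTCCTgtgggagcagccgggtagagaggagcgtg
Rpl10a, chr17:28328436-28328495, plus strand: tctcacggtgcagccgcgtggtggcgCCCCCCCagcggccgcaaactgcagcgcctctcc
Rpl26, chr11:68901531-68901590, plus strand: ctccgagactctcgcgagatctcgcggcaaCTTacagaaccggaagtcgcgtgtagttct

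The annotated start of Rpl7a lies inside a run of 21 pyrimidines, whereas the longest run at the start of Rpl26 had 3. Over all members with a window, 16 of 33 windows (48.5%) had such a run of 8 or more, against 15.4% of all 32851 windows. A C with at least 4 pyrimidines after it near the start was found in 39.4% of the members' windows and in 11.5% of all windows. In the full windows, from 250 bases before to 50 after the start and on both strands, the ETS-type letters CCGGAAG occurred in 39.4% of the members' windows and 8.86% of all. The Sp1-type letters GGGCGG occurred in 66.7% and 35.7%, the letters TATAAA in 6.06% and 13.6%, and the E-box CACGTG in 15.2% and 7.15%. These matches are descriptions of letters, and annotated starts can differ from the starts used in these cells. Rpl3, Rpl7, Rpl8, Rpl17, Rpl21, Rpl23a, Rpl29, Rpl30, Rpl32, Rpl36 and Rplp1 had no entry in the table.

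Against siNT, 2 members were lower in all 4 knockdowns, Rpl3 and Rpl10a, and 2 were higher in all 4, Rpl23a and Rpl34, although in the second table Rpl34 was higher in only 2 of the 4. Beyond these the family split by knockdown. In siRpl11, 16 members rose and 2 fell, with a median log2 change of 0.18. In siRpl14, siRpl18 and siRpl23 the medians were -0.10, -0.06 and -0.09, with 3, 2 and 3 members higher and 14, 13 and 14 lower. These counts stand against a high background. Over all 12249 genes limma called 70.9% in siRpl11 (27.3% higher and 43.6% lower), 62.8% in siRpl14 (33.3% and 29.5%), 67.6% in siRpl18 (32.8% and 34.7%) and 65.7% in siRpl23 (34.9% and 30.8%). The medians of all genes were -0.11, 0.02, -0.02 and 0.02. In this fit the share of members called either way was thus below the share of all genes in each knockdown, but that order depended on the fit. In siRpl11 a fit with the replicate number as a block called 28 members higher and 3 lower, against 28.9% and 45.4% of all genes. Median-ratio scaling there called 35 and 2, against 39.4% and 32.6%. What sets the members apart from one another is described gene by gene below. The 4 comparisons share the siNT libraries.

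**Figure D1:**
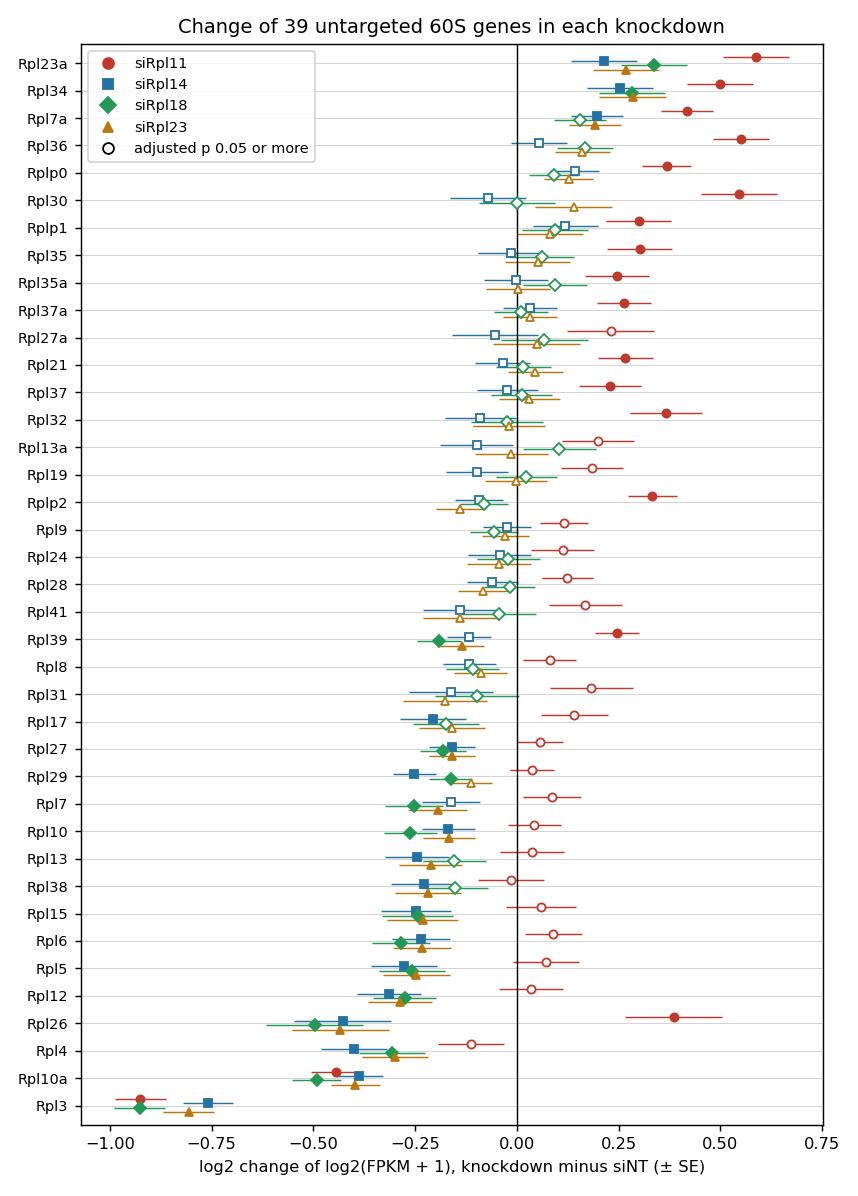
Log2 change of each of the 39 genes (rows) in the 4 knockdowns against siNT in the first table, as the fitted difference of log2(FPKM + 1) with its SE; filled symbols have an adjusted p under 0.05 and open ones do not. Rpl3 and Rpl10a lie at the bottom in every knockdown, and the siRpl11 symbols lie to the right of the other 3 in most rows, Rpl26 showing the widest gap.

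Rpl3 encodes a protein of the catalytic core of the subunit, near the centre where peptide bonds are made. Its values were 705 and 746 FPKM in siRpl11, 775 and 856 in siRpl14, 706 and 744 in siRpl18 and 768 and 808 in siRpl23, against 1345 and 1414 FPKM in siNT. The second table gave 748, 842, 797 and 806 FPKM in the knockdowns, in the same order, and 1380 FPKM in siNT. No knockdown library of either table reached the siNT level. By limma the log2 change was -0.93 ± 0.06 in siRpl11 (SE, adjusted p = 7.38e-07), -0.76 in siRpl14 (3.69e-06), -0.93 in siRpl18 (7.16e-07) and -0.81 in siRpl23 (2.05e-06). The mean FPKM of Rpl3 was 52.6% to 59.1% of siNT in the first table, and the third libraries stood at 54.2% to 61.0%. Its share of the summed FPKM of the 39 genes was 0.867% to 1.21% in the knockdown libraries of the first table and 1.86% to 1.90% in siNT, a measure that no rescaling of a whole library can move. In the second table that share was 0.710% to 0.878% in the knockdowns and 1.63% in siNT.

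Rpl10a encodes the protein of the L1 stalk, the mobile arm of the subunit beside the tRNA exit site. It measured 701 and 753 FPKM in siRpl11, 732 and 781 in siRpl14, 678 and 731 in siRpl18 and 736 and 768 in siRpl23, against 966 and 1015 FPKM in siNT. The knockdown and siNT libraries did not overlap. The log2 change was -0.45 ± 0.06 in siRpl11, -0.39 ± 0.06 in siRpl14, -0.49 ± 0.06 in siRpl18 and -0.40 ± 0.06 in siRpl23, with limma's adjusted p between 4.96e-05 and 2.90e-04. The third libraries gave -0.49, -0.39, -0.42 and -0.33 in the same order. Quantile normalization gave -0.20, -0.30 and -0.22 in siRpl14, siRpl18 and siRpl23 and median-ratio scaling -0.26 in siRpl11, all still called. The gene-level values used here do not separate isoforms, and any part of splicing or decay in the changes of Rpl3 and Rpl10a was not tested.

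Rpl23a encodes a protein at the rim of the tunnel through which the new chain leaves, where signal recognition particle docks. It measured 2419 and 2607 FPKM in siRpl11, 1854 and 2029 in siRpl14, 1967 and 2268 in siRpl18 and 1981 and 2045 in siRpl23, against 1614 and 1732 FPKM in siNT. All 8 knockdown libraries lay above both siNT libraries. The log2 change was 0.59 ± 0.08 in siRpl11 (limma adjusted p = 1.01e-04), 0.21 in siRpl14 (0.0403), 0.34 in siRpl18 (0.00407) and 0.27 in siRpl23 (0.0145), each with an SE of 0.08. The second table, where siNT was 2.08 times its level in the first, had Rpl23a at 5391, 5122, 5072 and 5603 FPKM in the knockdowns and 3483 FPKM in siNT. Without siNT replicate 1 the call was lost in siRpl14 (adjusted p = 0.20) and siRpl23 (0.0963), and it was likewise lost in siRpl14 without siNT replicate 2 (0.0521), siRpl14 replicate 2 (0.224) or either siRpl23 library (0.0588 and 0.0589) and in siRpl23 without siRpl23 replicate 2 (0.0786). In siRpl11 the change was 0.34 when libraries were scaled to the median member.

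Rpl7a and Rpl34 lay close to Rpl23a in the first table. Rpl7a measured 2530 and 2662 FPKM in siRpl11, 2149 and 2304 in siRpl14, 2090 and 2236 in siRpl18 and 2177 and 2259 in siRpl23, against 1891 and 1995 FPKM in siNT. All 8 knockdown libraries again lay above siNT. Its log2 change was 0.42 ± 0.06 in siRpl11 (limma adjusted p = 2.11e-04), 0.20 in siRpl14 (0.0218), 0.15 in siRpl18 (0.0542) and 0.19 in siRpl23 (0.0234), and 0.25, 0.08, 0.05 and 0.11 in the third libraries. Rpl34 had log2 changes of 0.50, 0.25, 0.28 and 0.28, all called, but 0.39, -0.11, -0.39 and 0.17 in the third libraries. The rise of Rpl34 in siRpl14 and siRpl18 was thus not seen in the second table, where its siNT level was 300 FPKM. Without siNT replicate 1 the calls of Rpl34 in siRpl14, siRpl18 and siRpl23 and those of Rpl7a in siRpl14 and siRpl23 were lost, with adjusted p from 0.106 to 0.183. Without the second replicate of the knockdown those of Rpl34 and Rpl7a were lost in siRpl14 (0.146 and 0.144) and siRpl23 (0.084 and 0.132), and that of Rpl7a in siRpl23 also without siRpl23 replicate 1 (0.0572).

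**Figure D2:**
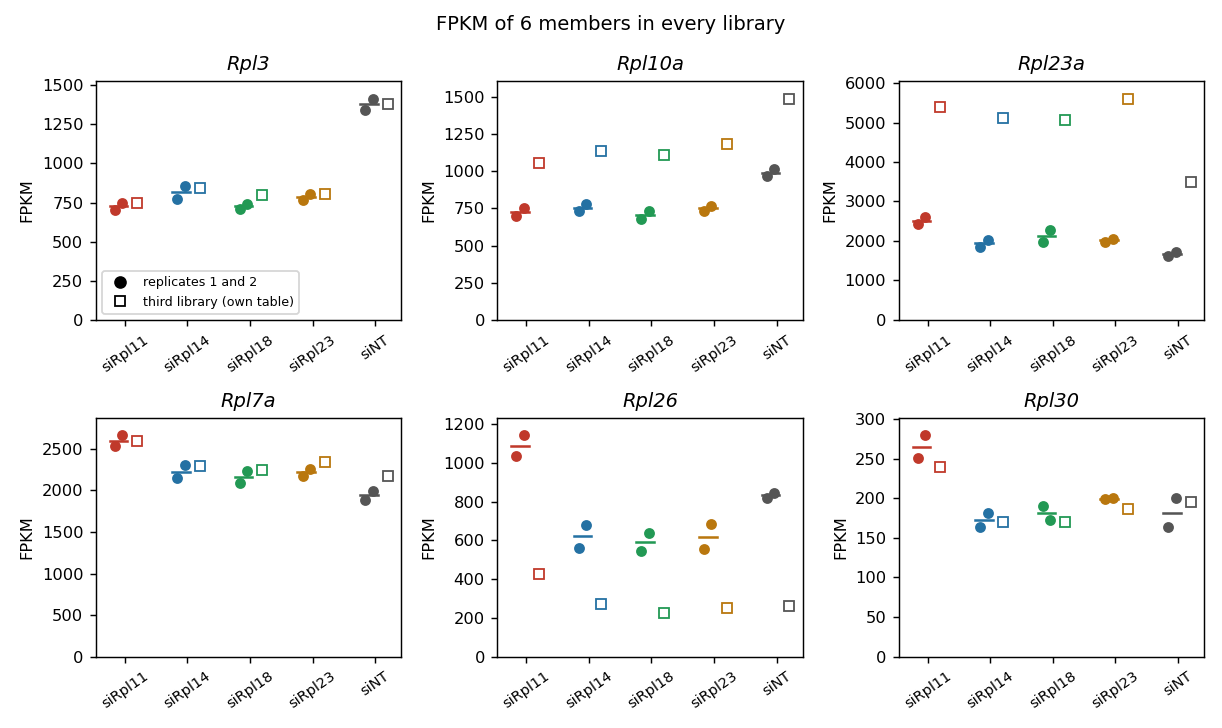
FPKM of Rpl3, Rpl10a, Rpl23a, Rpl7a, Rpl26 and Rpl30 in every library, with the knockdowns on the left and siNT on the right; dots are replicates 1 and 2 of the first table, short lines their mean and open squares the third library in its own table. Rpl3 and Rpl10a are lower in every knockdown, Rpl23a and Rpl7a higher in every one, and Rpl26 and Rpl30 stand apart in siRpl11.

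The other members are given by role. Rpl5, the partner of Rpl11 in the 5S particle, measured 866 and 956 FPKM in siRpl11, 668 and 764 in siRpl14, 677 and 775 in siRpl18 and 718 and 741 in siRpl23, against 852 and 881 FPKM in siNT. In siRpl11 its range overlapped that of siNT, and the log2 change was 0.07 ± 0.08 (limma adjusted p = 0.458), a value that was 0.26 and called under median-ratio scaling (0.0186) and -0.18 and called under scaling to the median member (0.00287). In siRpl14, siRpl18 and siRpl23 its changes were -0.28, -0.26 and -0.25 (adjusted p = 0.0131, 0.0172 and 0.0218), all called. The third libraries gave 0.16 in siRpl11 and -0.06, -0.12 and -0.10 in the other 3. Quantile normalization reduced the changes of Rpl5 in siRpl14, siRpl18 and siRpl23 to -0.06, -0.03 and -0.05, none called (limma adjusted p = 0.35, 0.614 and 0.459). The 3 calls were also lost without siNT replicate 2 (0.0684, 0.0831 and 0.0983) and without the first replicate of the knockdown (0.114, 0.135 and 0.10), and that in siRpl23 without siNT replicate 1 (0.0525) or siRpl23 replicate 2 (0.0542).

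The stalk is the flexible arm that recruits translation factors. Of its 4 genes, Rplp0, Rplp1 and Rplp2 rose in siRpl11, by 0.37 ± 0.06, 0.30 ± 0.08 and 0.33 ± 0.06 log2 (limma adjusted p = 3.30e-04, 0.00714 and 6.05e-04). Rplp1 measured 6389 and 6694 FPKM in siRpl11 libraries, 5641 and 5915 in siRpl14, 5412 and 5945 in siRpl18 and 5440 and 5816 in siRpl23, against 5089 and 5556 FPKM in siNT. The siRpl18 and siRpl23 libraries overlapped siNT and those of siRpl14 lay above it, and none of Rplp0, Rplp1 and Rplp2 was called in these 3 knockdowns. Rplp0 stood at 0.14, 0.09 and 0.13 there, and at 0.20, 0.21 and 0.23, all called, under quantile normalization. In the second table all 3 stalk genes were higher than siNT in siRpl14, siRpl18 and siRpl23, by 0.28, 0.25 and 0.34 log2 for Rplp0, 0.44, 0.27 and 0.39 for Rplp1 and 0.46, 0.33 and 0.53 for Rplp2. In siRpl11 the call of Rplp1 was lost without siNT replicate 1 (change 0.235) or siRpl11 replicate 2 (change 0.265). Under quantile normalization Rplp2 stood at 0.07 and was not called (limma adjusted p = 0.235). The change of Rplp1 there was 0.00. That normalization sets a value by its rank in the library, and Rplp1 had rank 2 of all genes in siNT. An unchanged rank gives 0.00 whatever the size of a rise, so this value does not bear on the rise of Rplp1. Rpl12, at the base of the stalk, fell in siRpl14, siRpl18 and siRpl23 by 0.31, 0.28 and 0.29 log2 (adjusted p = 0.0055, 0.01 and 0.00852), and stood at 0.03 in siRpl11. In siRpl11 its value was called with either sign, at 0.22 under median-ratio scaling and -0.21 under scaling to the median member. The calls of Rpl12 in siRpl18 and siRpl23 were lost without siNT replicate 2 (0.0804 and 0.07) and without the first replicate of the knockdown (0.0669 and 0.0704). The third libraries gave positive values for Rpl12 in all 4 knockdowns (0.27, 0.04, 0.05 and 0.22), so its lower level was not seen in the second table.

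Of the catalytic core genes, Rpl8 was not called in any knockdown (log2 changes from -0.12 to 0.08). Rpl10, whose protein joins last in the cytoplasm and completes the tRNA binding site, measured 2070 and 2162 FPKM in siRpl11, 1760 and 1895 in siRpl14, 1679 and 1747 in siRpl18 and 1777 and 1882 in siRpl23, against 1975 and 2136 FPKM in siNT. Its log2 change was 0.04 in siRpl11 (limma adjusted p = 0.572), but 0.23 under median-ratio scaling and -0.16 under quantile normalization, both called. It was -0.17, -0.26 and -0.17 in siRpl14, siRpl18 and siRpl23, called with adjusted p = 0.0427, 0.00481 and 0.0425. Without siNT replicate 2 the calls in siRpl14 and siRpl23 were lost (0.244 in each), as they were without any one library of siRpl11 or siRpl23 and, in siRpl14, without siRpl14 replicate 1 (limma adjusted p from 0.0576 to 0.24). The second table gave Rpl10 changes of 0.20, 0.04, -0.12 and -0.003 log2.

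Among the 8 genes of the exit tunnel wall and rim, calls went both ways in siRpl14, siRpl18 and siRpl23, as over all genes. In each of these 3 knockdowns, 1 of the 8 rose (Rpl23a) and 3 fell. Over all genes 33.3%, 32.8% and 34.9% were called higher there and 29.5%, 34.7% and 30.8% lower. The 3 of 8 called lower thus lay near the share of all genes. In siRpl11, 4 of the 8 rose, Rpl23a, Rpl26, Rpl35 and Rpl39, and none fell. Over all genes 27.3% were called higher and 43.6% lower in siRpl11. Rpl4, which lines the tunnel, measured 3150 and 3358 FPKM in siRpl11, 2516 and 2820 in siRpl14, 2700 and 2984 in siRpl18 and 2773 and 2943 in siRpl23, against 3383 and 3652 FPKM in siNT. Its log2 change was -0.11 ± 0.08 in siRpl11 (limma adjusted p = 0.239), -0.40 in siRpl14 (0.00169), -0.31 in siRpl18 (0.00682) and -0.30 in siRpl23 (0.00841). For Rpl4 the third libraries gave 0.18, -0.08, 0.04 and 0.08 log2. Its calls in siRpl18 and siRpl23 were lost without siNT replicate 2 (0.0558 and 0.0651), and that in siRpl23 without siRpl23 replicate 1 (0.0681).

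The remaining 22 genes encode other proteins of the body of the subunit. Of these, 9 rose and none fell in siRpl11, while 2, 1 and 2 rose and 6, 5 and 6 fell in siRpl14, siRpl18 and siRpl23. The share called higher in siRpl11 was 40.9%, against 27.3% of all genes, and the shares called lower in the other 3 were 27.3%, 22.7% and 27.3%, against 29.5%, 34.7% and 30.8% of all genes. Rpl36 measured 3040 and 3111 FPKM in siRpl11 against 2013 and 2188 FPKM in siNT, and its log2 change was 0.55 ± 0.07 (limma adjusted p = 4.97e-05). Rpl30, which in yeast is known to block the splicing of its own transcript, measured 251 and 280 FPKM in siRpl11 against 164 and 200 FPKM in siNT, a change of 0.55 ± 0.09 (4.54e-04). Neither was called in the other 3 knockdowns. Rpl29, the lowest member, had changes of 0.04 in siRpl11, -0.25 in siRpl14, -0.16 in siRpl18 and -0.11 in siRpl23, of which those in siRpl14 (0.00226) and siRpl18 (0.0205) were called, the second not without siNT replicate 2 (0.157) or siRpl18 replicate 1 (0.0913). Without siNT replicate 1 that in siRpl23 was called too (0.0345). The lower members in siRpl14, siRpl18 and siRpl23 included Rpl6 and Rpl15, with changes between -0.29 and -0.23. The third libraries gave 0.02, 0.05 and 0.05 for Rpl6 and -0.155, -0.355 and -0.265 for Rpl15. Without the filter the 3 calls of Rpl15 were lost (limma adjusted p = 0.0714, 0.0701 and 0.0845). Leaving out siNT replicate 2 or the first replicate of the knockdown lost those of Rpl15 in all 3 and those of Rpl6 in siRpl14 and siRpl23.

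The lower counts in siRpl14, siRpl18 and siRpl23 depended on which single library was left out. Without siNT replicate 2 the members called lower numbered 5, 6 and 3, and without the first replicate of the knockdown itself 5, 7 and 2. The members called higher in siRpl14 and siRpl23 numbered 0 without siNT replicate 1. They also numbered 0 in siRpl14 without siRpl14 replicate 2 and in siRpl23 without siRpl23 replicate 2. In siRpl18 the members called higher were 1 without siNT replicate 1 and 4 without siRpl18 replicate 1, and in siRpl23 they were 5 without siNT replicate 2. In siRpl11 the 16 higher became 10 without siRpl11 replicate 2. Replicate 2 was above replicate 1 in 38 of 39 members in siRpl11, siRpl14, siRpl18 and siNT and in 37 in siRpl23. The median of that difference was 0.10, 0.13, 0.13 and 0.07 log2 in the knockdowns and 0.11 in siNT, against -0.02 to 0.02 over all genes. The family thus moved together between libraries of 1 group by about as much as its median differed between siRpl14, siRpl18 or siRpl23 and siNT, and the part of that movement in the group differences was not tested. With both replicates in each group this shift is balanced. Leaving out 1 library of a group sets unequal replicate numbers against each other, so the shift then enters the comparison.

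In the second table the members called higher in siRpl11 were all higher (16 of 16) and those called lower all lower (2 of 2). Of those called higher in siRpl14, siRpl18 and siRpl23, 2 of 3, 1 of 2 and 3 of 3 were higher, and of those called lower, 7 of 14, 9 of 13 and 7 of 14 were lower. The median change over the 39 genes in the third libraries was 0.25, 0.06, 0.05 and 0.16. Across the 39 genes the changes in the 2 tables had a Spearman correlation of 0.72 in siRpl11, 0.54 in siRpl14, 0.52 in siRpl18 and 0.48 in siRpl23, given as a description over genes that share libraries.

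**Figure D3:**
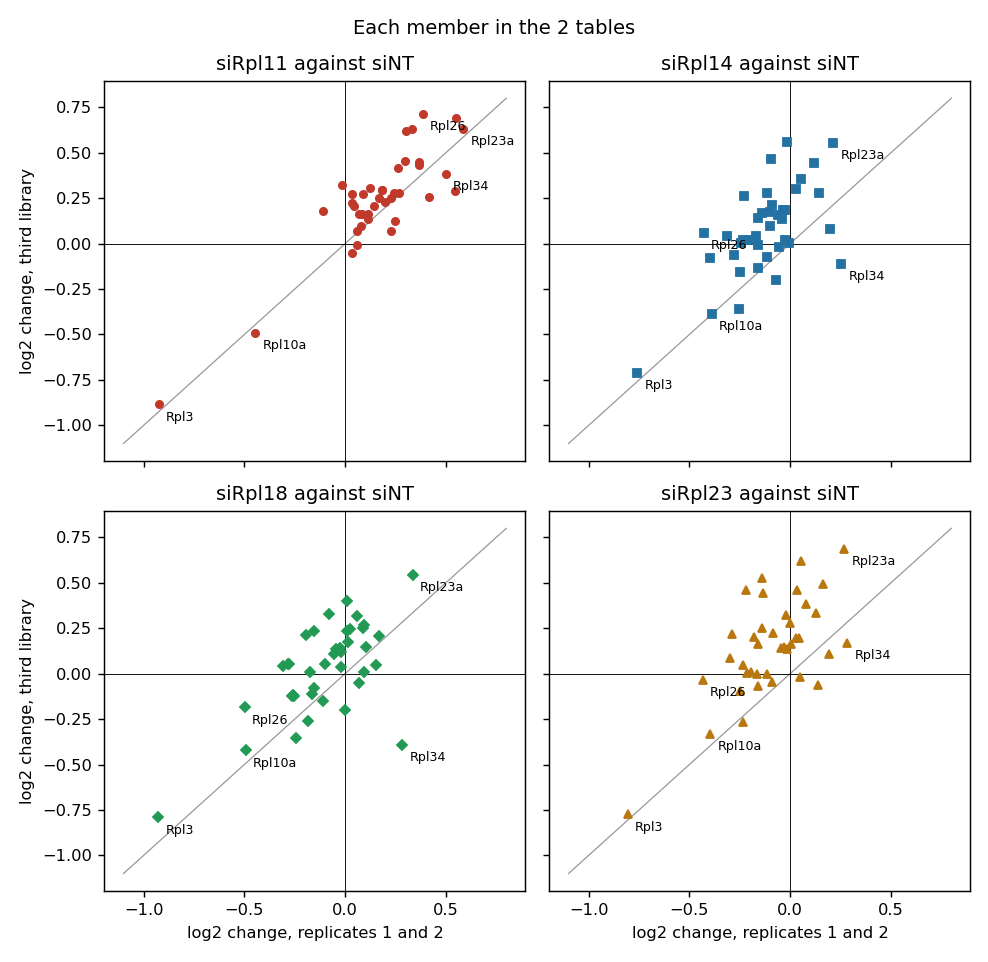
Each point is 1 of the 39 genes, with its log2 change against siNT in the first table on the x axis and in the third libraries on the y axis, 1 panel per knockdown; the grey line marks equal change. Rpl3 and Rpl10a lie near the line at the lower left in every panel and Rpl23a at the upper right, while Rpl34 lies below the horizontal zero line in siRpl14 and siRpl18.

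How the family as a whole stood against siNT depended on the scaling. In siRpl11 the median of all genes moved by 0.15 log2 under median-ratio scaling, by 0.12 under quantile normalization and by -0.25 when libraries were scaled to the median member, and the members' median became 0.37, 0.03 and -0.06. Quantile normalization sets a value by its rank, and 32 of the 39 members ranked within the 100 highest genes of siNT. It can take out part of a rise shared by the highest genes, so its values do not decide whether the family rose. The calls in siRpl11 were 35 higher and 2 lower under median-ratio scaling (39.4% and 32.6% of all genes), 15 and 11 under quantile normalization (34.9% and 33.6%) and 7 and 18 under scaling to the median member (10.5% and 58.4%), against 16 and 2 as deposited. Quantile normalization gave 9 higher and 12 lower in siRpl14 (29.5% and 34.2% of all genes), 12 and 14 in siRpl18 (31.4% and 36.9%) and 10 and 11 in siRpl23 (31.0% and 35.6%). Scaling to the median member gave 5 and 21 in siRpl14 (26.1% and 24.3%), 8 and 17 in siRpl18 (28.1% and 28.1%) and 6 and 19 in siRpl23 (28.6% and 25.1%). Median-ratio scaling gave 4 higher and 11 lower in siRpl18 (35.1% and 32.9%). Rpl3 and Rpl10a were lower, and Rpl23a in siRpl11, siRpl18 and siRpl23 higher, under each of these scalings, all called. The 39 genes held 14.2% and 14.8% of all FPKM in siRpl11, 12.3% and 12.8% in siRpl14, 12.5% and 13.1% in siRpl18 and 12.5% and 12.9% in siRpl23, against 13.0% and 13.6% in siNT. In the third libraries the share was 16.2%, 15.0%, 14.8% and 15.6% in the knockdowns and 14.0% in siNT.

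A ratio within a library is free of that scaling. The summed FPKM of the 39 large-subunit genes over that of 31 small-subunit (40S) genes was 1.06 and 1.07 in siRpl11, 1.06 and 1.06 in siRpl14, 1.05 and 1.05 in siRpl18 and 1.05 and 1.06 in siRpl23, against 1.19 and 1.19 in siNT. Every knockdown library of the first table lay below both siNT libraries. Within the second table the ratio was 1.17 in siRpl11, siRpl14 and siRpl18 and 1.15 in siRpl23, against 1.23 in siNT. Sums are led by the most abundant genes and the 4 targets are not in them. Of the 31 40S genes, 22 rose and 2 fell in siRpl11, 6 and 2 in siRpl14, 10 and 1 in siRpl18 and 9 and 1 in siRpl23, with medians of 0.30, 0.02, 0.04 and 0.03 log2. The shares called higher were 71.0%, 19.4%, 32.3% and 29.0%, against 27.3%, 33.3%, 32.8% and 34.9% of all genes. The ratio shows unequal change and does not itself say which subunit's genes changed. The 40S genes held 11.65% to 13.79% of all FPKM in first-table knockdown libraries, against 10.98% and 11.43% in siNT. In the third libraries they held 12.7% to 13.85%, against 11.41% in siNT. The share of the 39 genes was above siNT in both tables in siRpl11. In siRpl14, siRpl18 and siRpl23 it was above siNT only in the second table. Such shares depend on all other genes too.

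**Figure D4:**
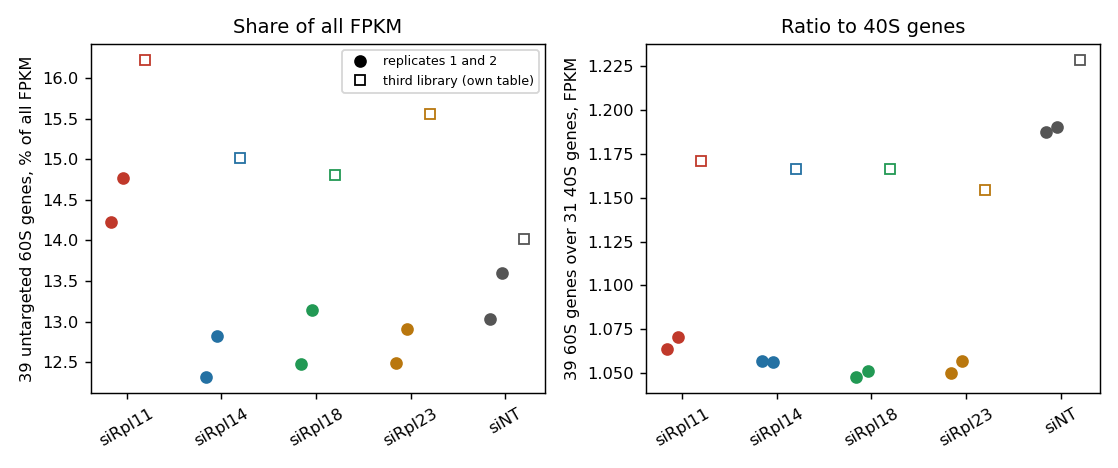
Left, the summed FPKM of the 39 genes as a percentage of all FPKM in each library; right, that sum over the summed FPKM of 31 40S genes; both axes start above 0. Dots are replicates 1 and 2 and open squares the third library in its own table. Within each table every knockdown has a lower ratio than siNT, while the share of all FPKM is highest in siRpl11.

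Knockdown of Rpl11 differed from the other 3 in almost the whole family. In siRpl11 against the mean of siRpl14, siRpl18 and siRpl23, 35 of 39 members were higher and 0 lower, and the median difference was 0.24 log2. Over all genes limma called 62.6% in this comparison, 18.4% higher and 44.2% lower, with a median of -0.12. The 4 not called were Rpl3 (-0.09), Rpl10a (-0.02), Rpl24 (0.15) and Rpl27a (0.21). In the third libraries 34 of the 35 were higher, with a median over the 39 genes of 0.14. Of the 31 40S genes 22 were higher and 0 lower (median 0.24). Without siRpl11 replicate 2 the 35 became 18, under quantile normalization there were 14 higher and 3 lower (34.8% and 26.5% of all genes), and under scaling to the median member 11 higher and 5 lower (3.30% and 71.4%).

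Rpl26 had the widest gap. Its protein sits at the tunnel rim, and it is also known to bind p53 mRNA and raise its translation. It measured 1036 and 1142 FPKM in siRpl11, but 562 and 682 in siRpl14, 544 and 640 in siRpl18 and 553 and 686 in siRpl23, against 820 and 845 FPKM in siNT. The siRpl11 libraries lay above siNT and the other 6 knockdown libraries below it, without overlap. In siRpl11 the log2 change against siNT was 0.39 ± 0.12 (limma adjusted p = 0.0148), and in siRpl14, siRpl18 and siRpl23 it was -0.43, -0.50 and -0.43, each ± 0.12 (0.0102, 0.0041 and 0.00895). The difference between siRpl11 and the mean of the other 3 was 0.84 ± 0.10 (3.98e-05), with a 95% interval of 0.62 to 1.06. In the third libraries Rpl26 measured 425 FPKM in siRpl11, 270 in siRpl14, 227 in siRpl18 and 252 in siRpl23, against 259 FPKM in siNT. There the gap between siRpl11 and the other 3 was 0.77, but the changes against siNT in siRpl14 and siRpl23 were 0.06 and -0.04. The call in siRpl11 against siNT was lost without siRpl11 replicate 2 (0.0914) and without siNT replicate 1 (0.0684), and in siRpl14 and siRpl23 it was lost without the first replicate of that knockdown (0.0897 and 0.0874), and in siRpl14 also without siNT replicate 2 (0.0526). Quantile normalization reduced the changes of Rpl26 in siRpl14 and siRpl23 to -0.20 in each, neither called (0.0694 and 0.0775), and scaling to the median member that in siRpl11 to 0.14 (0.133). The gap between siRpl11 and the others was called under every alternative run, between 0.59 and 1.02.

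Other wide gaps between siRpl11 and the other 3 knockdowns were those of Rpl30 (0.52 ± 0.08), Rplp2 (0.44 ± 0.05), Rpl36 (0.42 ± 0.06), Rpl32 (0.41 ± 0.07) and Rpl39 (0.39 ± 0.04), with limma's adjusted p from 2.94e-05 to 6.43e-04. Rpl30 measured 251 and 280 FPKM in siRpl11 and 164 to 200 FPKM in the other 6 knockdown libraries. Rplp2 measured 2832 and 2841 FPKM in siRpl11 and 2006 to 2178 FPKM in the other 6. The third libraries gave 0.45, 0.19, 0.34 and 0.22 for Rpl30, Rplp2, Rpl36 and Rpl32. Rpl39, a small protein of the tunnel wall, was the exception at -0.03, and its levels there in siRpl11, siRpl14, siRpl18 and siRpl23 were 3615, 3619, 3452 and 4056 FPKM, against 2982 FPKM in siNT. Rpl5 was 0.33 ± 0.07 higher in siRpl11 than in the other 3 (adjusted p = 0.00154).

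Among siRpl14, siRpl18 and siRpl23 themselves, limma's moderated F test called 0 of 39 members, and 0 had an unadjusted p under 0.05, whereas 10.1% of all genes were called. The smallest adjusted p was 0.19, for Rpl3, whose log2 changes were -0.76, -0.93 and -0.81 in these 3 knockdowns. Next came Rpl29, at 108 and 118 FPKM in siRpl14, 119 and 122 in siRpl18 and 123 and 126 in siRpl23, against 129 and 140 FPKM in siNT. Rpl13a measured 2157 and 2369 FPKM in siRpl14, 2417 and 2801 in siRpl18 and 2344 and 2452 in siRpl23, against 2307 and 2540 FPKM in siNT. The pairs of Rpl29 values did not overlap between the 3 knockdowns, and those of Rpl13a overlapped between siRpl23 and each of the other 2. A p above the threshold does not show that the 3 were equal.

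Of 6 properties set beside the change of the 39 genes, those of size had negative correlations in every knockdown. The Spearman correlation between coding length (GENCODE M21) and log2 change was -0.45 in siRpl11, -0.42 in siRpl14, -0.41 in siRpl18 and -0.39 in siRpl23, longer coding regions having the more negative values. The third libraries gave -0.47, -0.44, -0.42 and -0.58. For transcript length the values were -0.29, -0.34, -0.33 and -0.29 and for exon number -0.32, -0.22, -0.21 and -0.23. GC content of the transcript gave 0.06 to 0.18, the number of named pseudogenes 0.05 to 0.16 and the number of snoRNA genes inside -0.14 to 0.01. Without Rpl3 and Rpl10a the values for coding length in the first table were -0.39, -0.35, -0.33 and -0.31. Over all 11754 tested genes with a coding length the same correlation lay between -0.06 and -0.03. The points share libraries, and siNT enters all 4 values. The 18 members with snoRNA genes inside them had medians of 0.21, -0.11, -0.12 and -0.14, and the 21 without had 0.17, -0.10, -0.04 and -0.08.

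Genes that serve the subunit were counted in the same way. Of 58 60S assembly factors, 38 rose and 8 fell in siRpl11, 25 and 11 in siRpl14, 22 and 18 in siRpl18 and 26 and 11 in siRpl23, with medians of 0.24, 0.07, 0.07 and 0.11 log2. The shares called either way were 79.3%, 62.1%, 69.0% and 63.8%, against 70.9%, 62.8%, 67.6% and 65.7% of all genes, so the 3 last were close to the background. Those called higher were 65.5%, 43.1%, 37.9% and 44.8%, against 27.3%, 33.3%, 32.8% and 34.9% of all genes. Of 17 regulators of TOP mRNA translation, 6 rose and 8 fell in siRpl11, 2 and 4 in siRpl14, 2 and 5 in siRpl18 and 3 and 4 in siRpl23. These are 82.4%, 35.3%, 41.2% and 41.2% called, the 3 last below the share of all genes. The mRNA of Eif4ebp1, a translation repressor under mTORC1, had the lowest value of that list in each knockdown, from -0.65 in siRpl11 to -0.44 in siRpl23.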

How the data were processed

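RNA-seq libraries of polyadenylated RNA (15, in 5 groups of 3) were read as the authors deposited them, as FPKM per gene in separately normalized tables of 10 and 5 libraries, with 24819 genes each. Alignment and quantification used STAR and Cuffnorm on build mm9, per the submitters' processing notes; their versions, settings and gene models are not stated there. Any rescaling between libraries at that step would hide a shift common to most genes. The larger table also has 2 columns that match no sample of the series, which were left out.

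The filter was 1 FPKM or more in 2 or more libraries of the first table, and 12249 genes passed, all 39 members among them. A model with 1 term per group was fitted to log2(FPKM + 1) with limma 3.58.1 in R 4.3.3 (eBayes with trend, 5 residual degrees of freedom), so fold changes of low genes are understated. Its calls were checked on simulated data with normal noise drawn independently for each gene. That check does not cover a shift that the members share between replicates. Knockdowns were compared with siNT one by one, siRpl11 with the mean of siRpl14, siRpl18 and siRpl23, and these last 3 with each other by a moderated F test. Depth is known only relative to another library, so no counting interval is given. The labels do not say that replicate numbers mark a shared culture or day, and the libraries were not blocked by them. The alternatives were a pseudocount of 0.1, no filter, median-ratio, quantile and member-median scaling, only the groups compared, a replicate block, all 15 libraries with a table term, and leaving out each library.

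Genes are named by rule: the 3 largest called changes in each direction per comparison, the 3 smallest p of the F test, Rpl3, Rpl5, Rpl10, Rpl12 and Rplp0 by role, and the highest and lowest member in siNT. Others named, such as Rpl32, Rpl36, Rpl39 and the 4 not called, were chosen after their values were seen. The members and all gene lists were chosen with earlier results of these data known. Sequences are RefSeq windows of GRCm38.p6 and lengths are from GENCODE M21, other builds than mm9, and were matched by symbol.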

Additional observations from a re-analysis of the deposited data

Results flagged for a closer look

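The change of Rpl26 in siRpl11 exceeded its mean change in siRpl14, siRpl18 and siRpl23 by 0.84 log2, with opposite signs against siNT. The difference itself was tested as a contrast in limma, with an adjusted p of 3.98e-05, and was 0.77 in the third libraries. All 3 siRpl11 libraries were above the siNT libraries of their table. Against siNT the third libraries of siRpl14, siRpl18 and siRpl23 stood at 0.06, -0.19 and -0.04 log2. The sign of Rpl26 in siRpl14 thus differed between tables, and its value in siRpl23 was close to siNT in the second.

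Rpl39 met the same condition, with an excess of 0.39 log2 in siRpl11 (limma adjusted p = 2.99e-05). Against siNT it was 0.25 in siRpl11, -0.12 in siRpl14 (not called), -0.19 in siRpl18 and -0.14 in siRpl23. In the third libraries the excess was -0.03, and all 4 knockdowns lay above siNT there. The sign of Rpl39 in the last 3 knockdowns thus differed between tables.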

How the results depend on the processing

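The changes of all members called against siNT, those of the genes named by rule, and the 6 widest gaps between siRpl11 and the other knockdowns were refitted under 18 alternatives. The rule also took in the gaps of Rpl3, Rpl5, Rpl10, Rpl12, Rplp0, Rplp1 and Rpl29. The comparisons of single genes kept direction and side of the threshold in 1403 cases, passed the threshold only in the alternative in 32, lost it in 179 and turned sign in 24. Rpl3 and Rpl10a stayed lower and called in all 4 knockdowns under each alternative. A pseudocount of 0.1 changed none of these calls, but over all members 17 were higher in siRpl11 and 3 in siRpl18. Without the filter, members called in siRpl14 were 0 higher and 8 lower, and 6 were lower in siRpl23. With all 15 libraries and a table term, 8 were lower in siRpl14, 5 higher and 6 lower in siRpl23, 1 lower in siRpl11 against the other knockdowns, and 1 differed among siRpl14, siRpl18 and siRpl23. The cause was not tested.

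Among scalings, median-ratio scaling gave 35 higher in siRpl11 and 4 in siRpl18. Quantile normalization gave 11 lower in siRpl11, 9, 12 and 10 higher in siRpl14, siRpl18 and siRpl23, 14 higher and 3 lower in siRpl11 against the other 3, and 1 by the F test. Scaling to the median member gave 7 higher and 18 lower in siRpl11, 5, 8 and 6 higher in siRpl14, siRpl18 and siRpl23, 11 higher and 5 lower in siRpl11 against the other 3, and 2 by the F test. This scaling takes the family's own shift out by construction, and quantile normalization can take out part of a shift shared by the highest genes.

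Some values that turned sign were called in the alternative. Against siNT in siRpl11, scaling to the median member gave -0.177 for Rpl5, -0.205 for Rpl10, -0.213 for Rpl12, -0.211 for Rpl29, -0.00117 for Rpl35a, -0.0191 for Rpl37 and -0.00227 for Rpl39, and quantile normalization gave -0.164 for Rpl10, -0.0749 for Rpl12 and -0.00266 for Rpl39. Of these, Rpl5, Rpl10, Rpl12 and Rpl29 were called lower under scaling to the median member (adjusted p from 1.71e-05 to 0.0034) and Rpl10 and Rpl12 under quantile normalization (0.000652 and 0.0289). Leaving out 1 library gave -0.0138 to 0.0995 for Rpl10, -0.0273 to 0.0966 for Rpl12, -0.0217 to 0.0946 for Rpl29 (lowest without siNT replicate 1) and -0.000725 to 0.142 for Rpl5 (lowest without siRpl11 replicate 2, where Rpl12 stood at -0.0199). Between siRpl11 and the other 3, median-ratio scaling gave 0.0889 for Rpl3, and scaling to the median member gave -0.00413 for Rpl10, -0.0458 for Rplp1 and -0.0336 for Rpl29. Under quantile normalization Rpl27 stood at 0.0793, 0.0768 and 0.0692 in siRpl14, siRpl18 and siRpl23, the first 2 called higher (0.0372 and 0.0396). With all 15 libraries, Rpl38 and Rpl39 stood at 0.00828 and 0.0575 in siRpl23.

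Leaving out 1 library at a time gave 10 to 19 members higher and 2 to 2 lower in siRpl11, 0 to 4 and 5 to 15 in siRpl14, 1 to 4 and 6 to 15 in siRpl18, 0 to 5 and 2 to 14 in siRpl23, 18 to 37 and 0 to 0 in siRpl11 against the other 3, and 0 to 0 by the F test. A group left with 1 library is assumed to vary like the others.

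With the replicate number as a block, members called higher and lower were 28 and 3 in siRpl11, 5 and 21 in siRpl14, 8 and 17 in siRpl18, 6 and 20 in siRpl23 and 37 and 1 in siRpl11 against the other 3, and the F test called 4. Over all genes the block called 28.9% higher and 45.4% lower in siRpl11, 35.5% and 32.0% in siRpl14, 34.9% and 36.8% in siRpl18, 36.9% and 32.9% in siRpl23 and 20.5% and 46.7% in siRpl11 against the other 3. Same-numbered libraries deviated together with r from -0.09 to 0.20 over all genes and from -0.26 to 0.59 over the members. Values were above 0.1 in some pairs of groups only, and the main fit did not take the numbers as a pairing. Such a correlation across genes cannot see a shift that all members share. Replicate 2 was above replicate 1 in 37 or 38 of the 39 members in every group. The main fit leaves that shift in its residual spread, and the block takes it out. Depth is known only in relative terms, and with 2 libraries a group small changes were not detectable.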
